A study of Mus musculus with 12 samples.

Results

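The granzyme genes Gzmb, Gzmc, Gzmd, Gzme, Gzmf and Gzmg lie in a cluster on mouse chromosome 14. They were followed in 4T1 cells, a line derived from a mouse mammary carcinoma, by RNA-Seq of 12 libraries. The 6 genes were taken by symbol from the 55376 genes of the count table, and were selected on these data, because the counts of Gzme were higher in the METTL7A1 libraries. 4T1 cells had been stably transfected with full-length Mettl7a1 cDNA in the pBICEP-CMV-2 vector (METTL7A1) or with the empty vector (mock), and both lines were kept under G418 selection. METTL7A1 is a putative methyltransferase, and the study asked which mRNAs change their association with ribosomes when it is expressed. Both lines were treated with cycloheximide at 0.1 mg/ml during 5 min, which stops elongating ribosomes in place, and their cytoplasm was then separated on sucrose gradients. The sub-polysomal pool joined fractions 3 to 7, with free ribosomal subunits and monosomes, and the polysomal pool joined fractions 8 to 11. Each of the 4 groups had 3 libraries. The labels letter the mock replicates A to C and the METTL7A1 replicates D to F. Whether each transfected line was 1 clone or a pool of transfectants is not given in the sources used here, so that the transgene and the line that carries it cannot be told apart.

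Granzymes are serine proteases that cytotoxic T and natural killer (NK) cells store in granules and deliver into target cells through pores made by perforin. Granzyme B cuts after aspartate and sets off apoptosis of the target cell. Granzymes C, D, E, F and G are rodent proteins encoded next to it, and they are known from activated cytotoxic lymphocytes and from NK cells of the pregnant uterus. Genes of mast cell, basophil and neutrophil proteases neighbour them in the same cluster.

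The 6 genes span chr14:56117626-56262260 of GRCm38, all on the minus strand and each with 5 exons, over 144.6 kb. Gzme lies at chr14:56117626-56120625, and its nearest member, Gzmd, begins 8.93 kb away at chr14:56129556-56132608. Gzmg (chr14:56156582-56159579), Gzmf (chr14:56205263-56211417), Gzmc (chr14:56231441-56234656) and Gzmb (chr14:56258838-56262260) follow. Gzmn, a granzyme gene that is not among the 6, has its promoter at chr14:56174600-56174849, between Gzmg and Gzmf. As these genes arose by duplication, the first question was how far a read from one of them could be counted for another. In a global alignment of coding sequences, Gzme shared 93.3% of its columns with Gzmd, 89.6% with Gzmg and 85.4% with Gzmf. Its identity was 72.6% with Gzmc and 67.2% with Gzmb, and 81.9% with Gzmn.

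The stretch below is shown because it is where a Gzme read is hardest to tell from a Gzmd read. In 120 coding bases the genes differ at 1, which is in capitals. Written from the Gzme base to the Gzmd base and counted from the first base of the Gzme start codon, it is C397T. The stretch lies in coding bases 343 to 462 of Gzme (minus strand, chr14:56118392-56118511) and 355 to 474 of Gzmd (minus strand, chr14:56130341-56130460).
Gzme: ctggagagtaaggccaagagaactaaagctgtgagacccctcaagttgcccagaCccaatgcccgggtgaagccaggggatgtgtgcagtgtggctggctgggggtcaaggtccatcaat
Gzmd: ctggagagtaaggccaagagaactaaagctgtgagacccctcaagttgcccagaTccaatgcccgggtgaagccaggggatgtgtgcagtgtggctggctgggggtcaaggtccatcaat
By contrast, coding bases 82 to 201 hold 13 differing bases with no gap in the alignment. This stretch lies at chr14:56119303-56119422 in Gzme and at chr14:56131235-56131354 in Gzmd, again on the minus strand with the differing bases in capitals.
Gzme: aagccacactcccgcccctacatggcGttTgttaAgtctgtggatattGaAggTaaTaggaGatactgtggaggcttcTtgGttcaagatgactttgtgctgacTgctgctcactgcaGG
Gzmd: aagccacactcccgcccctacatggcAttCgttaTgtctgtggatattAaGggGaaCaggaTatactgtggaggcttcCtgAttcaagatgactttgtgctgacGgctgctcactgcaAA

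Every window of 100 bases of the 916-base Gzme transcript was absent from every other annotated transcript, so that 100% of 817 windows belonged to Gzme alone. With windows of 75 bases this held for 95.2% and with windows of 50 bases for 79.4%. The longest run of identical coding bases was 96 with Gzmd and 90 with Gzmg. Uniqueness was often a matter of few bases. Of the 817 windows of 100 bases, 163 had a match in Gzmd with at most 2 mismatched bases, 20 had one in Gzmg and 4 had one in Gzmf. The median window differed from Gzmd by 5 bases, from Gzmg by 9 and from Gzmb by 41. Read length and the treatment of reads with several matches are not given for these libraries in the sources used here, and a share of reads moved or dropped between Gzme and Gzmd was not tested. At the annotation used, 0 other genes overlapped the exons of Gzme. Gm4022 overlaps Gzmf, and it had 0 counts in all 12 libraries.

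**Figure D1:**
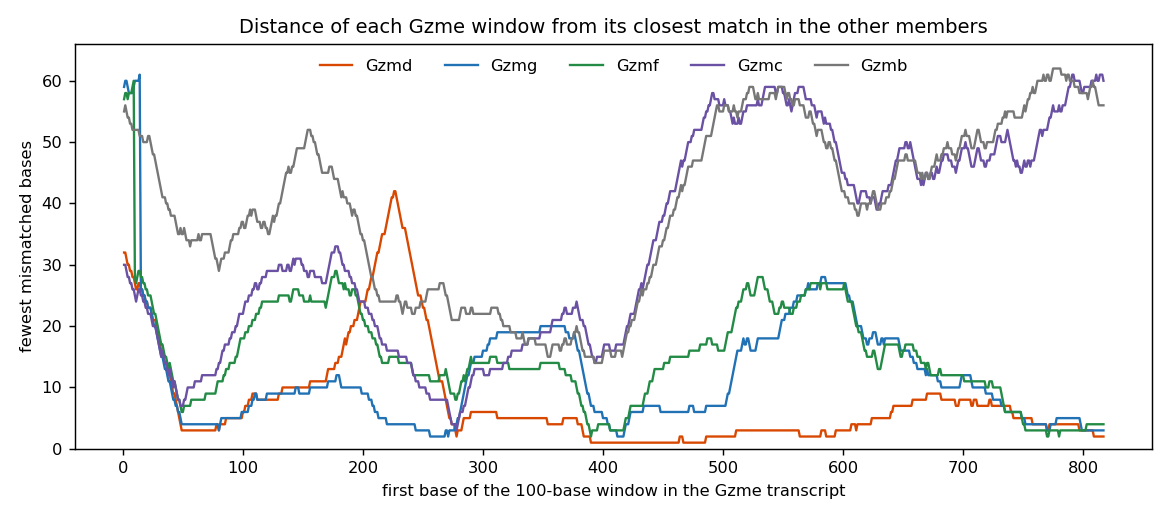
Lowest number of mismatched bases (vertical axis) between each 100-base window of the Gzme transcript (horizontal axis, first base of the window) and the transcripts of the other 5 genes, matched without gaps. The Gzmd line is at 5 or less in 475 of 817 windows and rises to 42 where Gzmd has 12 more coding bases, whereas the Gzmb line never falls under 14.

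The library totals ranged from 1817520 to 6966156 counts. Mettl7a1 (chr15:100304180-100328662) was counted 4 to 24 times in mock and 989 to 2436 times in METTL7A1 libraries, so each library matched the genotype of its label. These counts do not check the pool or the replicate letter. Of 8 epithelial markers, 7 passed the filter of at least 1 CPM (counts scaled to library size) in at least 3 libraries, among them Epcam, Cdh1, Krt8 and Krt18, and Krt5 was at 0. Their summed level was 3048 to 4457 CPM in the mock and 3122 to 6587 CPM in the METTL7A1 libraries. At an adjusted p below 0.05 with edgeR's test, 4 of the 7 were higher in polysomal RNA of METTL7A1 than of mock cells (Cdh1, Krt7, Krt8 and Krt18), beside 18% of all tested genes in either direction. In sub-polysomal RNA Krt8 was higher and Epcam and Krt14 were lower, beside 31.4% of all tested genes. Krt7 had a log2 change of 0.47 (adjusted p = 0.0381) in polysomal and 0.14 (adjusted p = 0.514) in sub-polysomal RNA, and Krt18 had 0.61 (adjusted p = 0.00873) and 0.050 (adjusted p = 0.829). The log2 change of Epcam in sub-polysomal RNA was -0.71 (adjusted p = 0.00709) and that of Krt14 was -0.56 (adjusted p = 0.0102).

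Gzme, granzyme E, carried nearly all the counts of the 6 genes. In mock cells it had 3, 2 and 9 counts in the sub-polysomal libraries A, B and C. In the mock polysomal libraries A, B and C it had 2, 1 and 8 counts. In METTL7A1 cells it had 56, 54 and 31 counts in the sub-polysomal libraries D, E and F. In the METTL7A1 polysomal libraries D, E and F it had 62, 53 and 49 counts. Every METTL7A1 library was above every mock library, and within mock cells both libraries of replicate C held the most counts. This is the contrast on which the genes were selected, so nothing is read from the separation. Of the 12224 genes that passed the filter, 0.982% were called higher in polysomal and 1.5% in sub-polysomal RNA of METTL7A1 cells, where genes were called at an adjusted p below 0.01 with a log2 value beyond 1.5.

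The remaining members were at or next to 0. Gzmd, the closest relative, had 0 counts in the 6 mock libraries, 2, 1 and 1 in the METTL7A1 sub-polysomal libraries and 0, 0 and 1 in the METTL7A1 polysomal libraries. Gzmc had 1 count, in METTL7A1 polysomal library D. Gzmb, the best known granzyme of cytotoxic lymphocytes, had 0 counts in all 12 libraries, as did Gzmf and Gzmg. In METTL7A1 cells Gzme therefore made up 305 of the 311 counts of the 6 genes, or 98.1% (95% exact binomial interval 95.8% to 99.3%). Gzmd made up 5 of them, or 1.61% (0.524% to 3.71%). In mock cells all 25 counts were from Gzme (95% exact binomial interval 86.3% to 100%). With 25 counts, a 0 allows a share of up to 12% for each other member. A count of 0 among 311 allows a share of up to 0.965% for each of Gzmb, Gzmf and Gzmg, and these limits and intervals cover counting error only.

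**Figure D2:**
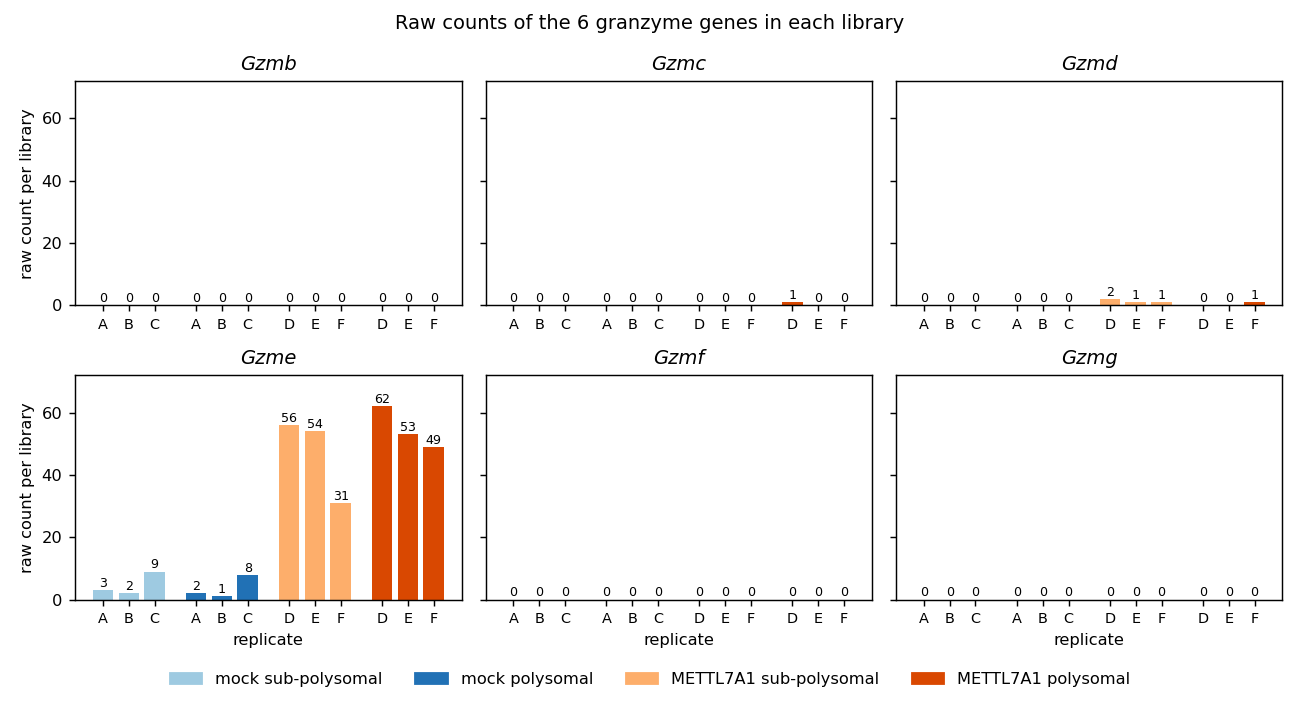
Raw counts (vertical axis, the same in each panel) of the 6 granzyme genes in the 12 libraries (horizontal axis, replicate letters; colours give the groups), with the count above each bar. Gzme reached 31 to 62 counts in METTL7A1 and 1 to 9 in mock libraries, and no other member exceeded 2.

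Levels were then compared after scaling for library size by the TMM method, since the polysomal libraries were the larger ones. Gzme stood at 1.36 ± 0.639 CPM (SD, n = 3) in mock sub-polysomal RNA, with 1.69, 0.629 and 1.77 CPM in replicates A, B and C. In mock polysomal RNA it was at 0.467 ± 0.459 CPM (SD, n = 3), with 0.273, 0.137 and 0.992 CPM. In METTL7A1 sub-polysomal RNA it was at 13.1 ± 5.58 CPM (SD, n = 3), with 18.5, 13.4 and 7.40 CPM in replicates D, E and F. In METTL7A1 polysomal RNA it was at 7.84 ± 0.912 CPM (SD, n = 3), with 8.48, 6.80 and 8.24 CPM. The order of the 4 group means was METTL7A1 sub-polysomal, METTL7A1 polysomal, mock sub-polysomal and mock polysomal. Single libraries overlapped between the 2 METTL7A1 pools and between the 2 mock pools, and did not overlap between the genotypes. As 3 counts correspond to 0.372 to 1.69 CPM in a library, each mock value rests on very few reads.

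The fitted log2 change of Gzme between METTL7A1 and mock cells was 3.95 (SE 0.45) in polysomal and 3.19 (SE 0.46) in sub-polysomal RNA. It is given as a description, with no test. Gzme was the 1 member of 6 that passed the filter, at 1 CPM or more before TMM scaling in 9 libraries of which 3 were mock. It is also the member that the rule for picking the genes names. Without mock replicate C the polysomal value was 5.10. Total RNA was not analysed here, and fewer cells that express Gzme and less RNA per cell cannot be told apart in bulk samples.

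On a scale that also divides by transcript length (RPKM), Gzme reached 14.3 RPKM in METTL7A1 sub-polysomal and 8.56 RPKM in METTL7A1 polysomal RNA. It was at 1.49 RPKM in mock sub-polysomal and at 0.510 RPKM in mock polysomal RNA. Among the 12224 tested genes these levels sat at percentile 65.6 and 56.3 in METTL7A1 cells and at percentile 21.8 and 9.43 in mock cells. In METTL7A1 polysomal RNA, Gzme was at least 85.7-fold higher per length than Gzmb, at least 54.8-fold higher than Gzmf and at least 54.2-fold higher than Gzmg. The limit is set by 3 counts over the group. In METTL7A1 sub-polysomal RNA the same limits were 73.7-fold, 47.2-fold and 46.6-fold. For mock cells they were only 5.75-fold, 3.68-fold and 3.64-fold in polysomal and 7.32-fold, 4.68-fold and 4.63-fold in sub-polysomal RNA.

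The distribution of Gzme between the pools was not used to pick it and was tested with edgeR's quasi-likelihood test. In METTL7A1 cells the log2 change from sub-polysomal to polysomal RNA was -0.71 (SE 0.30, 95% interval -1.34 to -0.084, adjusted p = 0.0481 over all tested genes). This passed 0.05, as did 59.3% of tested genes in that comparison, but not the threshold of a call, which 12.1% of tested genes passed. In mock cells the log2 change of Gzme was -1.48 (SE 0.72, 95% interval -2.98 to 0.024, adjusted p = 0.0976), and 7.55% of tested genes were called. The polysomal to sub-polysomal ratio of CPM was 0.161, 0.218 and 0.559 in replicates A, B and C and 0.457, 0.508 and 1.11 in D, E and F. Only in replicate F was the CPM of Gzme higher in the polysomal library. CPM is a share of a library and not an amount of RNA in the pool. In METTL7A1 cells the value of Gzme moved to -0.28 (adjusted p = 0.425) with TMM factors set within each pool and to -0.47 (adjusted p = 0.335) without replicate D, and over all alternatives its adjusted p ranged from 0.0137 to 0.425.

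The shift of Gzme to polysomes, which is the pool change in METTL7A1 cells minus that in mock cells, was 0.76 on the log2 scale (SE 0.75, 95% interval -0.81 to 2.34, adjusted p = 0.664 with edgeR's quasi-likelihood test). The interval spans a decrease as well as an increase, and the value rests on 25 counts in mock cells. Without mock replicate C the shift of Gzme was 1.47 (adjusted p = 0.649), and without METTL7A1 replicate F it was 0.43 (adjusted p = 0.814). In all tested genes edgeR called 0 shifts (0% of 12224), with 1912 at an unadjusted p below 0.05, and DESeq2 and limma-voom also called 0. At an adjusted p below 0.05 with no limit on the log2 value, edgeR and limma-voom gave 0 genes and DESeq2 gave 368. With that threshold edgeR gave 111 without mock replicate A and 159 with a filter of 1 count in total.

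Mcpt8 was the nearest expressed neighbour of Gzme. It encodes mast cell protease 8, a granzyme-like serine protease known from basophils, and lies at chr14:56082166-56085197, 32.4 kb from Gzme on the same strand. Its counts were 39, 112 and 204 in mock sub-polysomal libraries A, B and C and 98, 131 and 190 in mock polysomal libraries. In METTL7A1 cells it had 279, 365 and 317 counts in sub-polysomal libraries D, E and F and 690, 616 and 406 in polysomal libraries. Its 59.4% coding identity with Gzme and the 37 or more mismatched bases of every 100-base Gzme window set it apart from the granzyme transcripts, so that near-identical sequence is not shared between the pair.

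The level of Mcpt8 was higher in both pools of METTL7A1 cells. In polysomal RNA it averaged 18.3 ± 5.10 CPM (SD, n = 3) in mock cells against 80.6 ± 13.1 CPM (SD, n = 3) in METTL7A1 cells, a log2 change of 2.13 (SE 0.21, adjusted p = 8.79e-07 with edgeR's quasi-likelihood test). In sub-polysomal RNA Mcpt8 stood at 32.5 ± 9.42 CPM (SD, n = 3) in mock cells against 86.2 ± 9.14 CPM (SD, n = 3) in METTL7A1 cells, a log2 change of 1.36 (SE 0.21, adjusted p = 0.000125). The second change stayed under the limit of 1.5, and passed it when counts were scaled to Actb (1.64) and without mock replicate C (1.55). In mock cells Mcpt8 was lower in polysomal than in sub-polysomal RNA, with a log2 change of -0.87 (SE 0.22, adjusted p = 0.00311), which became -0.45 (adjusted p = 0.0764) with TMM factors set within each pool. In METTL7A1 cells its log2 change between the pools was -0.094 (SE 0.19, adjusted p = 0.697). The shift of Mcpt8 was 0.78 (SE 0.29, adjusted p = 0.211) and was not called. Per length, Mcpt8 was at 96.4 RPKM in METTL7A1 polysomal RNA, where Gzme was at 8.56 RPKM, and at 21.9 RPKM in mock polysomal RNA, where Gzme was at 0.510 RPKM.

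**Figure D3:**
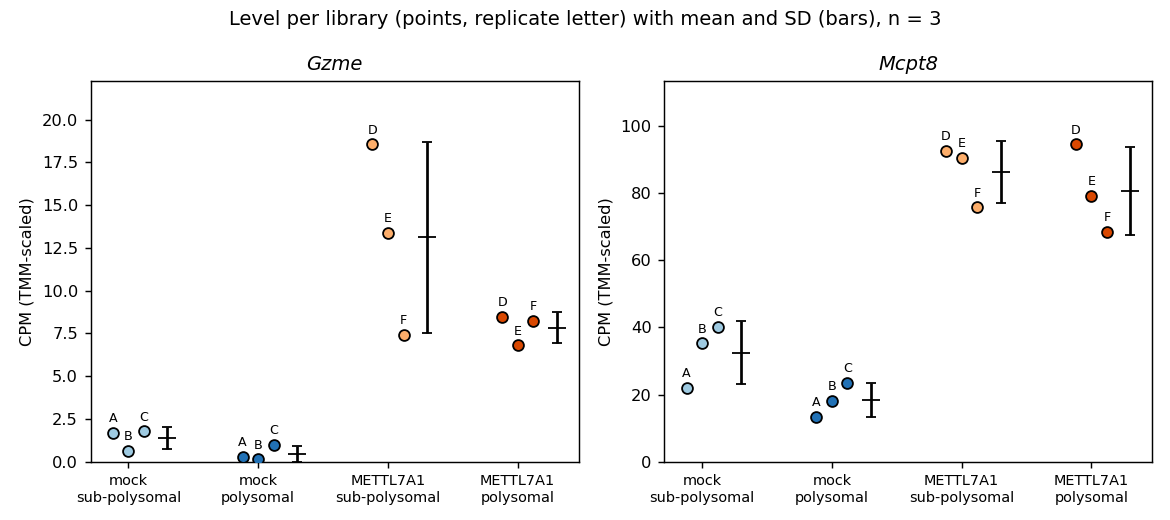
TMM-scaled CPM (vertical axis) of Gzme and of its neighbour Mcpt8 in the 4 groups (horizontal axis); points are single libraries with their replicate letter, and bars give the mean and SD of 3. The METTL7A1 libraries lie above all mock libraries for both genes, from 6.80 to 18.5 CPM for Gzme and from 68.3 to 94.4 CPM for Mcpt8.

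Around the cluster, 68 genes of the count table are annotated within 500 kb, of which 34 had 0 counts in all 12 libraries and 20 besides Gzme passed the filter. From Cma1 to Gzmb the table lists 26 genes, and 17 of them had 0 counts, among them the protease genes Cma1 and Ctsg. In polysomal RNA Mcpt8 was the 1 gene called among the 20, beside 0.982% of all tested genes called higher and 1.15% called lower. In sub-polysomal RNA 0 of the 20 were called, beside 1.5% called higher and 1.26% called lower. At an adjusted p below 0.05, 5 of the 20 differed in polysomal RNA (3 higher in METTL7A1 cells), beside 18% of all tested genes, and 8 differed in sub-polysomal RNA (5 higher), beside 31.4% of all tested genes. Apart from Mcpt8, the log2 changes of the neighbours lay between -0.82 and 1.23 in polysomal and between -1.28 and 1.45 in sub-polysomal RNA. The highest belonged to Tgm1, a transglutaminase of epithelia 404.1 kb away, with a log2 change of 1.23 (SE 0.38, adjusted p = 0.0318 with edgeR's test) in polysomal and 1.45 (SE 0.43, adjusted p = 0.0157) in sub-polysomal RNA. On the other side of the cluster, beyond Gzmb, the 5 tested genes had log2 changes from -0.82 (Cenpj) to -0.00041 (Pspc1) in polysomal RNA. In sub-polysomal RNA these ran from -1.28 (Gm16973) to -0.42 (Pspc1). At an adjusted p below 0.05, only Cenpj differed in polysomal RNA, and only Mphosph8 and Gm16973 in sub-polysomal RNA.

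**Figure D4:**
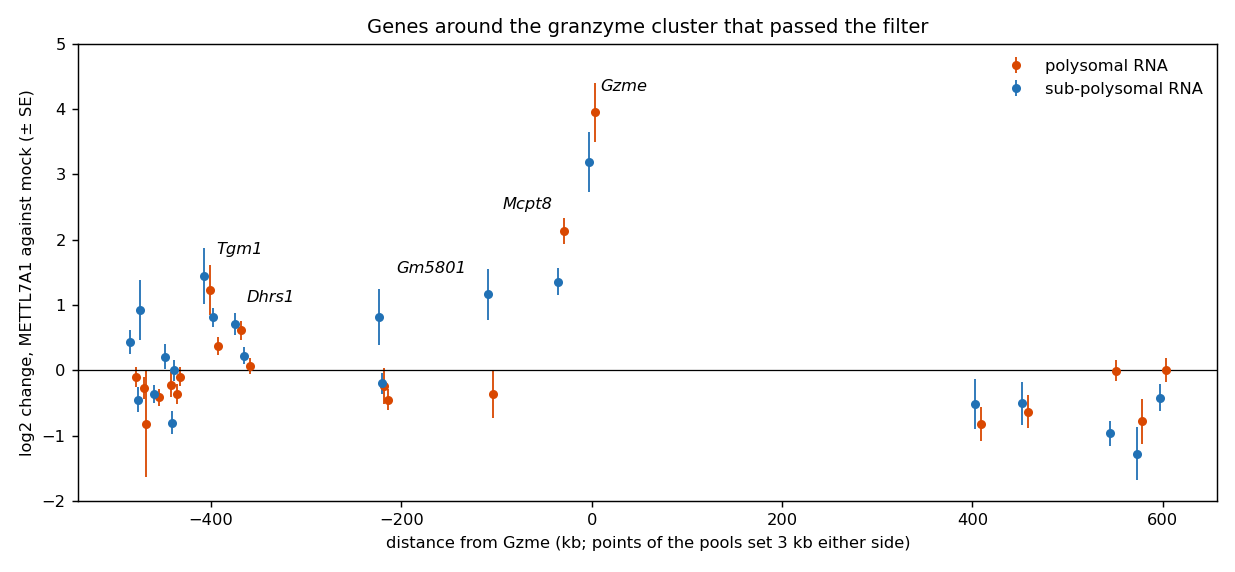
Log2 change between METTL7A1 and mock cells (vertical axis, bars are SE) of the 21 tested genes around the cluster, by their distance from Gzme in kb (horizontal axis, from the lower coordinate), in polysomal and sub-polysomal RNA. Gzme (3.95 and 3.19) lies above all others in both pools, and Mcpt8 (2.13 and 1.36) comes next in polysomal RNA, whereas in sub-polysomal RNA Tgm1 (1.45) lies between them. Gzme was selected on this contrast, so nothing is read from its place above the neighbours.

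Gzme and Gzmd also have near-identical promoters, which are shown because their counts were so far apart. In the 250 bases upstream of the RefSeq start, 94.8% of aligned columns were identical, with 11 substitutions and 2 gap columns. Differing bases are in capitals below. The sequences are from RefSeq on GRCm38.p6, on the minus strand, at chr14:56120626-56120875 for Gzme and chr14:56132594-56132843 for Gzmd, where the last 15 bases fall within the first exon of the GENCODE annotation.
Gzme: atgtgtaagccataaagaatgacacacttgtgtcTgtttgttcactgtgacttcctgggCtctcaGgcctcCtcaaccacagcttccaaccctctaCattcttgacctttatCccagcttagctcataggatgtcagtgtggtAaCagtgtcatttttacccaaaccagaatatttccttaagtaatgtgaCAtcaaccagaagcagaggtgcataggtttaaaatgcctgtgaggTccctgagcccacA
Gzmd: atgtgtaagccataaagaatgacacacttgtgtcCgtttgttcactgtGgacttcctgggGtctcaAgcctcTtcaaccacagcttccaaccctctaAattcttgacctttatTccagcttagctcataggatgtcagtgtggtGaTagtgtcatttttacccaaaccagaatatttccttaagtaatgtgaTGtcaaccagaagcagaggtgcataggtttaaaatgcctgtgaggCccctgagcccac
The upstream identity of Gzme was 80.9% with Gzmc, 79.4% with Gzmg, 74.9% with Gzmf, 44.1% with Gzmb and 45.8% with Mcpt8. Motifs were searched on both strands in 250 upstream bases, and were chosen with these promoters in view. TGTGGT, the core recognised by Runx factors, was found in all 6 members, in Mcpt8 and in the neighbouring protease genes Mcpt1 (3 counts over the 12 libraries), Mcpt4 and Ctsg (0 counts), and in 14% of 32851 RefSeq promoters. TTTAAA was found in Gzmd, Gzme, Gzmf, Gzmg, Mcpt8 and Gzmn, beginning 32 bases upstream of the Gzme start, and in 12.1% of promoters. TGACGTCA, the cyclic AMP response element, was found in Gzmc, Gzmf and Gzmg and in 1.55% of promoters, and these letters are not in the windows of Gzme, Gzmd and Gzmb. TGANTCA, the AP-1 consensus, was found in Gzmb, as in 6.75% of promoters. The letters of a motif describe the window and show no binding.

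The machinery with which lymphocytes store and release granzymes was expressed in part. Of 12 such genes 9 passed the filter, while Prf1 (perforin), Srgn (serglycin, the granule proteoglycan) and Nkg7 had 0 counts in all 12 libraries. Ctsc, cathepsin C, which removes the activation peptide of granzymes, had 50 to 192 counts in mock and 50 to 269 counts in METTL7A1 libraries, with a log2 change of 0.40 (SE 0.20, adjusted p = 0.183) in polysomal and -0.55 (SE 0.24, adjusted p = 0.0839) in sub-polysomal RNA. At an adjusted p below 0.05 with edgeR's test, 2 of the 9 were higher in polysomal RNA of METTL7A1 cells, Lamp1 and Unc13d, beside 18% of all tested genes in either direction. In sub-polysomal RNA Unc13d was higher and Ctsh and Rab27a were lower, beside 31.4% of all tested genes. Unc13d, which primes granules for release, had the larger changes among these, 0.74 (SE 0.19, adjusted p = 0.00926) in polysomal and 1.48 (SE 0.24, adjusted p = 0.000181) in sub-polysomal RNA. Lamp1, a lysosomal membrane protein, had a log2 change of 0.54 (SE 0.16, adjusted p = 0.0291) in polysomal RNA, and Ctsh, cathepsin H, had -0.48 (SE 0.17, adjusted p = 0.0422) in sub-polysomal RNA. Ctsc, Unc13d and Rab27a were named after their values were seen. In polysomal RNA the median log2 change of the 9 was 0.19, and in sub-polysomal RNA -0.18, beside -0.014 and -0.0013 for all tested genes.

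Of 11 serpins that include the intracellular granzyme inhibitors, 4 passed the filter. Serpinb6b, an intracellular clade B serpin, fell in METTL7A1 cells in both pools. It had 21, 41 and 47 counts in mock sub-polysomal and 128, 96 and 107 in mock polysomal libraries, against 2, 11 and 13 and 28, 27 and 21 counts in METTL7A1 cells. Its log2 change was -2.01 (SE 0.24, adjusted p = 9.68e-06 with edgeR's test) in polysomal and -2.26 (SE 0.33, adjusted p = 6.8e-05) in sub-polysomal RNA, and 1.15% and 1.26% of all tested genes were called lower. Serpinb9, the inhibitor of granzyme B, had a log2 change of 0.061 (adjusted p = 0.88) in polysomal and -0.43 (adjusted p = 0.287) in sub-polysomal RNA. Serpinb6a, which had the highest CPM of the serpins, had log2 changes of -0.14 (adjusted p = 0.554) and -0.35 (adjusted p = 0.0805). Serpinb9b had at most 18 counts in a library and log2 changes of 1.79 (SE 0.62, adjusted p = 0.052) in polysomal and 0.47 (adjusted p = 0.747) in sub-polysomal RNA, and was named after its values were seen.

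All 10 listed substrates of granzyme B passed the filter. At an adjusted p below 0.05, 1 of the 10 was higher and 1 lower in polysomal RNA of METTL7A1 cells, beside 18% of all tested genes in either direction. In sub-polysomal RNA 1 was higher and 3 were lower, beside 31.4% of all tested genes. Among those reported here, Lmnb1, a lamin of the nuclear envelope, was higher in polysomal RNA of METTL7A1 cells (log2 change 0.60, adjusted p = 0.0291 with edgeR's test). In sub-polysomal RNA Numa1, a protein of the mitotic spindle, was higher (log2 change 1.04, adjusted p = 0.000817) and Casp8, an initiator caspase, was lower (log2 change -1.08, adjusted p = 2.34e-05). These genes were named after their values were seen. Mcl1, a survival protein of mitochondria, had 0.30 (adjusted p = 0.122) and 0.14 (adjusted p = 0.456). The 10 had a median log2 change of -0.079 in polysomal RNA and of -0.24 in the sub-polysomal pool.

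Of 16 regulators that act on granzyme genes in lymphocytes 7 passed the filter, while Tbx21 (T-bet), Runx3 and Il2ra were at 0 throughout. Eomes, a T-box factor of cytotoxic lymphocytes, was lower in METTL7A1 cells, with 14, 17 and 26 counts in mock and 3, 9 and 8 counts in METTL7A1 sub-polysomal libraries. Its log2 change was -1.70 (SE 0.38, adjusted p = 0.00232 with edgeR's test) in sub-polysomal RNA, and was no longer called with scaling to Actb (-1.45), without replicate D (-1.48) or without replicate F (-1.77, adjusted p = 0.0101). In polysomal RNA the log2 change of Eomes was -0.99 (SE 0.27, adjusted p = 0.0154). Stat3, named after its values were seen, was higher in sub-polysomal RNA (log2 change 1.05, adjusted p = 0.00939). Runx1 had log2 changes of -0.11 (adjusted p = 0.639) in polysomal and 0.19 (adjusted p = 0.359) in sub-polysomal RNA, and Stat5b had -0.14 (adjusted p = 0.643) and 0.045 (adjusted p = 0.894).

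**Figure D5:**
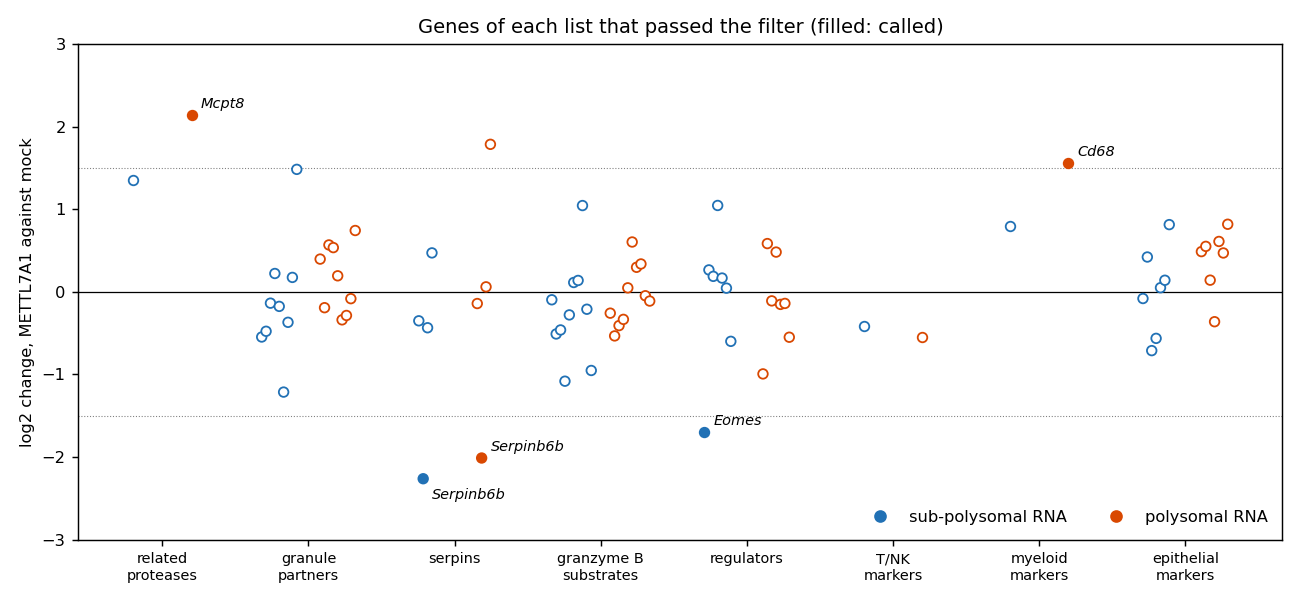
Log2 change between METTL7A1 and mock cells (vertical axis) of the tested genes of each list (horizontal axis) in sub-polysomal (blue) and polysomal (orange) RNA. Filled points were called, and dotted lines mark the limit of 1.5. Mcpt8 (2.13) and Cd68 (1.56) lie above the limit in polysomal RNA, Serpinb6b lies below it in both pools (-2.01 and -2.26) and Eomes in sub-polysomal RNA (-1.70).

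Markers of the cells that usually make granzymes were close to 0 in both genotypes. Of 21 markers of T and NK cells, 13 had 0 counts in all 12 libraries, among them Cd3e, Cd8a, Ncr1, Prf1, Nkg7 and Gzma, and 1 passed the filter, the kinase gene Lck. Without Lck, the summed level of the list was 0 to 0.197 CPM in the mock and 0 to 0.992 CPM in the METTL7A1 libraries, in which Gzme itself was at 6.80 to 18.5 CPM. Lck had 12 to 45 counts in mock and 13 to 26 in METTL7A1 libraries, with a log2 change of -0.54 (adjusted p = 0.17 with edgeR's test) in polysomal RNA. Of 9 mast cell markers 5 were at 0 throughout, including Ms4a2 and Fcer1a, the receptor chains for IgE that basophils share, and the sum of the list was 0 to 0.275 CPM in mock and 0 to 0.673 CPM in METTL7A1 libraries. Of 8 myeloid markers, Adgre1, Lyz2 and Tyrobp were at 0, and 1 passed the filter, Cd68, a lysosomal glycoprotein of macrophages. Cd68 had 34, 52 and 63 counts in mock and 163, 167 and 83 in METTL7A1 polysomal libraries. Its log2 change was 1.56 (SE 0.23, adjusted p = 0.00011) in polysomal and 0.80 (SE 0.27, adjusted p = 0.0329) in sub-polysomal RNA. The polysomal call was lost without mock replicate A (1.39) and without replicate D (1.44) or E (1.48), as the change then fell under 1.5. The sum of the myeloid list without Cd68 was 0 to 0.629 CPM in mock and 0.478 to 1.37 CPM in METTL7A1 libraries. The part of such cells in the Gzme level was not tested beyond these values.

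Last, the tested genes whose pattern across the 12 libraries was most like that of Gzme were sought, by the root mean square difference of log2 CPM after each gene was centred on its mean. The closest were Tslp (0.51), Atg9b (0.66), Fgfbp1 (0.66), Bmp7 (0.66) and Pmp22 (0.71), against a median of 1.79 over all tested genes. Mcpt8 came at rank 22 (0.87), and Mettl7a1, with its far larger change, at rank 7345 (1.85). Tslp, a cytokine made by epithelial cells, was at 36.7 ± 5.15 CPM (SD, n = 3) in polysomal RNA of mock cells against 312.4 ± 27.9 CPM (SD, n = 3) in that of METTL7A1 cells. Pmp22, a membrane protein of myelin and epithelia, was at 1.70 ± 0.501 CPM (SD, n = 3) in polysomal RNA of mock cells against 18.4 ± 3.43 CPM (SD, n = 3) in that of METTL7A1 cells. Likeness here is a description that was chosen to be high, and the genotype difference dominates it.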

How the data were processed

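RNA of pooled gradient fractions of mock and METTL7A1 4T1 cells was measured in 12 libraries (3 in each of 4 groups, named by the labels). Per the labels, libraries were made by the authors with a stranded, rRNA-depleting kit, and the submitters' processing notes name STAR 2.5.3a, featureCounts and the builds mm10 and GRCm38. Paired ends and an Ensembl annotation of that build are described for the study's total RNA only. The deposited values are raw counts per gene, with no normalization. Read length, the strand setting and the handling of reads with several matches are not given for these libraries in the sources used here.

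The filter asked for 1 CPM or more, before TMM scaling, in 3 or more libraries and left 12224 genes. TMM scaling and 1 model with a mean for each group were run in edgeR 4.0.16 (R 4.3.3), and contrasts were tested with the quasi-likelihood test and Benjamini-Hochberg adjustment over all tested genes. Genes were called at an adjusted p below 0.01 with a log2 value beyond 1.5. The fit was tested on simulated counts. Standard errors were derived from the F statistic. Apart from the filter, CPM and RPKM were scaled by TMM, and a prior count of 2 was added for log2 CPM. P-values measure the spread between replicates, which may be technical. Total counts lay between 1817520 and 6966156, at which 3 counts equal 0.372 to 1.69 CPM.

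Exons in the count table were compared with GENCODE M21 (GRCm38), and transcript windows were searched for exact and ungapped matches in its transcripts. Coding and upstream sequences were aligned with Biopython 1.88. Promoters were from RefSeq, and all 6 members matched. The members, the gene lists and the tests were chosen with earlier results of these data known. Named were the 6 members, Mettl7a1, from each list the called genes and the 2 with the highest mean CPM, tested genes within 500 kb of the cluster, and the 5 genes most like Gzme, apart from some results that are not reported here. Alternatives were RLE factors, TMM factors within each pool, scaling to Actb, DESeq2 1.42.0, limma-voom (limma 3.58.1), other filters, the compared groups alone, the replicate block, a looser threshold, other window lengths, and leaving out each replicate.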

Additional observations from a re-analysis of the deposited data

Results flagged for a closer look

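Cd68, the lysosomal glycoprotein among the myeloid markers, had a lower level in the polysomal library than in the sub-polysomal one of that letter for each mock replicate (log2 difference -1.22 to -0.13) and a higher one for each METTL7A1 replicate (0.22 to 0.34). The difference between the genotypes, a log2 shift of 0.76 (SE 0.36), was not past the threshold (adjusted p = 0.317 with edgeR's quasi-likelihood test). The signs within each genotype are those with TMM factors set across the pools. With factors within each pool, the median pool change of all tested genes in mock cells moved from 0.054 to 0.48. Whether the signs of Cd68 hold under that scaling was not tested.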

How the results depend on the processing

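In METTL7A1 against mock cells, Gzme kept its sign in all alternatives, with log2 changes of 3.55 to 5.10 in polysomal and 2.86 to 3.62 in sub-polysomal RNA when 1 replicate was left out. As Gzme was selected on this contrast, nothing is read from the kept sign. The pool change of Gzme stayed negative in all 16 alternatives in both genotypes, between -1.05 and -0.28 in METTL7A1 and between -2.18 and -1.07 in mock cells. Among these, the looser threshold reuses the main fit and cannot change the sign. Leaving out replicates of the other genotype barely moves the value. In METTL7A1 cells the pool change of Gzme passed (-0.71) where only an adjusted p below 0.05 was asked for. With that threshold 7247 genes were called between pools in METTL7A1 and 5746 in mock cells, in place of 1480 and 923, and 2197 in polysomal and 3836 in sub-polysomal RNA between genotypes, in place of 260 and 337. A filter of 1 count in total gave 10 called shifts in place of 0. The pool change of Mcpt8 in METTL7A1 cells reversed to 0.35 with TMM factors within each pool, in place of -0.094. Genes of the lists named in the text at an adjusted p below 0.05 kept their sign in all 14 alternatives run for them, and that p stayed below 0.05 in between 8 (Krt7) and 14 of these. Scaling to Actb moved the median of all tested genes between genotypes to 0.26 in sub-polysomal and 0.082 in polysomal RNA. The share of Gzme windows found in no other gene fell from 100% at 100 bases to 95.2% at 75 and 79.4% at 50 bases.

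With the replicate letter as a block, Gzme changed by -0.69 in METTL7A1 and -1.38 in mock cells, with a shift of 0.69, and no call of Gzme or Mcpt8 changed. Deviations of the libraries of 1 letter correlated with r between -0.29 and 0.11, and the main fit did not take the letters as pairs. Such correlations do not show that these libraries are unpaired. The SE of the Mcpt8 pool change in mock cells was 0.156 with the block, in place of 0.219. The shift of Mcpt8 then had an adjusted p of 0.117 in place of 0.211, with edgeR's quasi-likelihood test.

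The depth limits the mock values of Gzme, which rest on 25 counts in 6 libraries. Gzmd and Gzmc rest on 5 counts and 1 count.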
